A study of Mus musculus with 56 samples.

Results

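Primary keratinocytes, cultured cells of the outer layer of the skin, were exposed to transforming growth factor β1 (TGF-β1) for 1 h, and 6 of the 56 arrays of the series measured this exposure. The 6 arrays were chosen by their labels, which give primary Balb/c cells, 1 h of TGF-β1 and replicates 1 to 6, and no measured value entered the choice. The cells came from the skin of newborn mice, per the labels, and TGF-β1 was given at 1 ng/ml. Each 2-colour array carried treated RNA in Cy5 and untreated RNA of the same cell type in Cy3, so each value is the log2 ratio of TGF-β1 over untreated. Ras keratinocytes are the same kind of culture after transduction with a replication-defective retrovirus that carries Ha-ras, and 6 arrays compare 1 h of TGF-β1 with untreated ras cells. Primary keratinocytes at 6, 24 and 48 h of TGF-β1, each against untreated primary cells, gave 7, 6 and 3 arrays, after 2 arrays of reversed dyes at 48 h were left out. The direction, TGF-β1 over untreated, is likely from the order of the channels in the labels.

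TGF-β1 binds a pair of receptor kinases that phosphorylate SMAD2 and SMAD3, which join SMAD4 and enter the nucleus to act on their target genes. Among the fastest targets are the pathway's own inhibitors, such as the inhibitory SMAD Smad7 and the co-repressor Skil, so the signal builds a brake on itself. In epithelial cells, keratinocytes included, the pathway is known for halting proliferation through induction of the cell cycle inhibitors Cdkn2b and Cdkn1a and repression of Myc and the Id genes. At a later stage it is known for matrix and actin genes.

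The 6 arrays differed widely in spread and correlated weakly for most pairs. The SD over features, where a feature is a gene symbol or an unnamed probe, lay between 0.313 on replicate 6 and 1.05 on replicate 3. Correlations between pairs of the 6 arrays over the 8905 features lay between -0.223 and 0.181 (Pearson, median 0.024), and by rank between -0.272 and 0.443 (Spearman, median 0.005). Single ratios were often extreme on 1 array: 228 features passed 5 in size on at least 1 of the 6 arrays, with 92 of them on replicate 2, 70 on replicate 3, 49 on replicate 1, 27 on replicate 5, 5 on replicate 4 and 0 on replicate 6. Spot brightness was not used here, so how bright the spots behind these ratios were is unknown. The series text speaks of several arrays for a time point's sample, so some or all of the 6 arrays may share 1 RNA sample, in which case a p-value covers array-to-array spread alone. The labels' experiment numbers fall into runs, here called number blocks, of which the 6 arrays span 4, and what a block stands for is not stated. Keratinocyte markers could be checked only as ratios, since a ratio does not give a level. The 9 measured ones (Krt5, Krt15, Krt17, Krt6a, Trp63, Itga6, Itgb4, Col17a1 and Sfn) had means between -0.18 and 0.15, with none of the same sign on all 6 arrays.

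One gene, Klf10, passed the test across all features, and it was higher with TGF-β1. The fit was limma over 49 arrays with Benjamini-Hochberg adjustment, and a feature was called at an adjusted p under 0.05. Beyond the groups named above, the 49 hold ras cells at 6, 24 and 48 h of TGF-β1. They also hold Smad3 wild-type and Smad3 knockout cells, primary and ras, at 48 h, with 1 array per group. Groups of more than 1 array share 1 estimate of the spread of a feature. Of 8905 features, 1 was called higher (0.0112%) and 0 lower (0%), while 284 features (3.19%) were higher and 194 (2.18%) lower at an unadjusted p under 0.05. By sign alone, 200 features (2.25%) were above 0 and 187 (2.1%) below 0 on all 6 arrays. Among genes of the same sign on all 6 arrays, those behind Klf10 by p were Skil, Smad7, Rhob and Rnd3, ranked 2 to 5 of all features, and Tnf at rank 7. Ank2, which had arrays of both signs and was named after its values were seen, stood between Rnd3 and Tnf with a mean of -1.58 and a lowest array of -6.13. None of these reached the threshold after adjustment.

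Klf10 encodes a zinc finger transcription factor first described as a TGF-β inducible early gene. Its log2 ratios were 0.53, 0.43, 0.71, 0.68, 1.69 and 0.98 on replicates 1 to 6. Every array was thus above 0, with replicate 5 highest and the other 5 within 0.43 to 0.98. The mean was 0.84 ± 0.46 (SD, n = 6), a 1.79-fold ratio, with an SE of 0.15 in the fit and a 95% interval of 0.53 to 1.15. Klf10 rose (limma adjusted p = 0.0225). Its exact sign-flip permutation p over the 6 arrays was 0.03125 (two-sided), the smallest that 6 arrays can give. Every feature of the same sign on all 6 arrays has this sign-flip p, so it adds nothing beyond the signs. The call rests on few arrays. Without replicate 3, 4, 5 or 6, 1 at a time, the adjusted p of Klf10 was 0.0797, 0.0732, 0.478 and 0.22 in that order, and in a fit of the 6 arrays alone it was 0.908. In bulk RNA, fewer cells of a type and less RNA per cell cannot be told apart.

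Of the named genes above 0 on all 6 arrays, Skil had the largest mean and Smad7 the third largest, so the pathway's own inhibitors were near the top. Skil, which encodes the SnoN co-repressor that binds SMADs and silences their targets, had log2 ratios of 0.51, 0.83, 0.70, 1.05, 1.52 and 1.50. Its mean was 1.02 ± 0.42 (SD, n = 6), a 2.03-fold ratio (SE 0.22, adjusted p = 0.129). Replicates 5 and 6 were high and replicate 1 was low. Smad7, the inhibitory SMAD that blocks the TGF-β receptor, had log2 ratios of 0.70, 1.02, 0.78, 0.57, 1.28 and 1.55. Its mean was 0.98 ± 0.37 (SD, n = 6; SE 0.23, adjusted p = 0.336). Here too replicates 5 and 6 were the highest, and no array was below 0.57. Smad6, the inhibitory SMAD better known for BMP signalling, was above 0 on all 6 arrays with a median of 0.30. Its mean of 0.80 was set by replicate 3 at 3.48, since the other 5 arrays lay between 0.05 and 0.59.

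**Figure D1:**
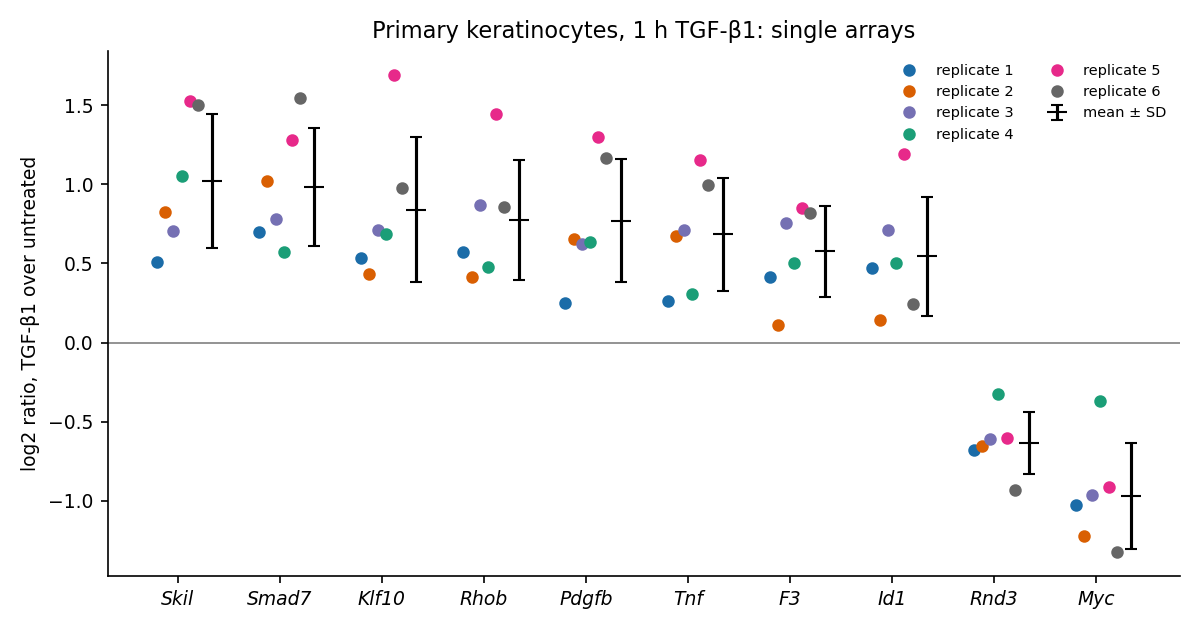
Log2 ratio of TGF-β1 over untreated (vertical axis) for 10 genes in primary keratinocytes at 1 h, with a point per array in the colour of its replicate and the mean ± SD beside it (n = 6). Skil, Smad7, Klf10, Rhob, Pdgfb, Tnf, F3 and Id1 lay above 0 on every array, and Rnd3 and Myc below 0 on every array; Klf10 alone among them passed the test.

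The plot of single arrays shows that the order of the arrays was alike for several of these genes. Replicate 5 held the highest ratio for Skil, Klf10, Rhob, Pdgfb, Tnf, F3 and Id1, and replicate 6 for Smad7. Replicate 5 was not the widest array (SD 0.713 over features). Gene lists described below were also shifted on it. The medians of TGF-β and SMAD target, hypoxia and glycolysis, and stress genes on replicate 5 were 0.39, 0.44 and 0.35. The median over all named genes was 0.02 there, and that of muscle markers was -0.50. The part of the array in these values was not tested.

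Of genes that act on the actin cytoskeleton, Rhob lay above 0 and Rnd3 below 0 on all 6 arrays. Rhob, a known fast TGF-β target, had log2 ratios of 0.57, 0.42, 0.87, 0.48, 1.45 and 0.86. Its mean was 0.77 ± 0.38 (SD, n = 6; SE 0.19, adjusted p = 0.345). Rnd3, whose product promotes the loss of actin stress fibres, stood at -0.68, -0.65, -0.61, -0.33, -0.60 and -0.93. Its SD of 0.19 around a mean of -0.63 was small beside that of Rhob (SE 0.16, adjusted p = 0.505). With limma array weights, which count noisy arrays less, Rnd3 stood at -0.64 with an adjusted p of 0.0473. In 19 of 20 alternative runs Rnd3 was not called. In the list of integrin, focal adhesion and actin genes, 31 of 54 were measured. At an unadjusted p under 0.05, 2 of them were higher (Rhob and the muscle ankyrin repeat gene Ankrd1, mean 0.45) and 1 lower (Rnd3), with 0 called, where 3.19% of all features were higher and 2.18% lower by that rule. The list's median was 0.06, against -0.02 over all features.

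Pdgfb, Tnf and F3, which act outside or at the surface of the cell, lay above 0 on all 6 arrays and were not called. Pdgfb, the B chain of platelet-derived growth factor, had log2 ratios of 0.25, 0.65, 0.62, 0.63, 1.30 and 1.17, mean 0.77 ± 0.39 (SD, n = 6; adjusted p = 0.735). Tnf, the cytokine tumour necrosis factor, had 0.26, 0.67, 0.71, 0.30, 1.15 and 1.00, mean 0.68 ± 0.36 (SD, n = 6; adjusted p = 0.505). F3, the cell-surface tissue factor that starts blood clotting, had 0.41, 0.11, 0.75, 0.50, 0.85 and 0.82, mean 0.58 ± 0.29 (SD, n = 6; adjusted p = 0.884). In all of them replicate 5 was the highest array. Hbegf, a ligand of the EGF receptor, was above 0 on 5 of 6 arrays with a mean of 0.42. In the list of cytokine, chemokine and NF-kB genes, 37 of 55 were measured, 4 were above 0 on all 6 arrays (Tnf, Birc3, Ccl7 and Vegfa; 10.8%, against 2.25% of all features) and 0 below 0 on all 6. Of those 37, with a list median of 0.03, 5 were higher at an unadjusted p under 0.05, as were 3.19% of all features: Tnf, the apoptosis inhibitor Birc3 (mean 0.33), the cytokine signalling inhibitor Socs3 (0.51), the chemokine Cxcl10 (0.39) and Il1b. The mean of Il1b, 1.10, came from replicate 2 at 6.36, while its median was 0.17. Cxcl10 was above 0 on 4 of 6 arrays, with replicate 3 highest at 1.35. Like all lists here, this one was chosen with earlier results of these data known, so its shares describe it and do not test it.

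Among the transcription regulators known to be held down by TGF-β in epithelia, the Id genes lay at or above 0 and Myc lay below it at 1 h. Id1, which encodes a helix-loop-helix protein that keeps differentiation factors from binding DNA, had log2 ratios of 0.47, 0.14, 0.71, 0.50, 1.19 and 0.25, mean 0.54 ± 0.38 (SD, n = 6; adjusted p = 1.0). Its relative Id2 had 0.65, 0.28, 0.26, 0.36, 1.12 and -0.09, mean 0.43 ± 0.41 (SD, n = 6; adjusted p = 0.923). Id3 stayed near 0 with a mean of 0.06 ± 0.26 (SD, n = 6), 3 arrays above 0 and 3 below. None of the Id genes passed the test. Bhlhe40, a helix-loop-helix repressor and known SMAD target, was above 0 on 4 of 6 arrays, with a mean of 0.52 ± 0.81 (SD, n = 6) and replicate 5 at 1.94.

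Myc, the growth-promoting transcription factor, had log2 ratios of -1.03, -1.22, -0.96, -0.37, -0.91 and -1.32. All 6 arrays were below 0, with replicate 4 nearest to it. The mean was -0.97 ± 0.33 (SD, n = 6), or 0.511 times the untreated level, but Myc varied on the other arrays of the series and its SE in the shared fit was 0.35 (adjusted p = 0.766). In the list of MYC and ribosome biogenesis genes, 33 of 46 were measured and 15 had a mean above 0, with a median of -0.03. Besides Myc, 1 member was below 0 on all 6 arrays: Fbl, the nucleolar methyltransferase fibrillarin, with a mean of -0.29 ± 0.35 (SD, n = 6) and ratios of -0.76 and -0.73 on replicates 5 and 6. No member was above 0 on all 6.

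In the list of cell cycle inhibitors and G1 genes, 15 of 26 were measured, with 0 called, 1 above 0 on all 6 arrays and a median of 0.01. The means lay between -0.21 and 0.34, and 9 of 15 were above 0. Cdkn2b, which encodes the p15 inhibitor of G1 kinases, had a mean of 0.32 ± 0.33 (SD, n = 6) and was above 0 on 5 of 6 arrays. Cdkn1a, which encodes p21, had a mean of 0.34 ± 0.50 (SD, n = 6) and was also above 0 on 5 of 6 arrays. Neither of these passed the test.

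The target list of the TGF-β and SMAD pathway gathers these roles. Of its 51 genes, 37 were measured, and 1 (Klf10) was called. At an unadjusted p under 0.05, 10 were higher (Klf10, Skil, Smad7, Rhob, Gadd45b, Pdgfb, Smad6, F3, Bhlhe40 and Id2) and 1 lower (Snai2, a repressor of epithelial genes, mean -0.34). Of the 37, 8 were above 0 on all 6 arrays (21.6%) and 0 below, against 2.25% and 2.1% of all features. The list was chosen with earlier results of these data known, so these shares describe it and do not test it. The list's median log2 ratio was 0.16, and 28 of 37 means were above 0, against 45.9% of all features. Without replicates 3 and 5, the count at an unadjusted p under 0.05 was 6 in place of 10. Gadd45b, a stress gene of the GADD45 family that activates the p38 kinase route, was above 0 on 5 of 6 arrays with a mean of 0.63 ± 0.50 (SD, n = 6). Matrix and later targets in the list lay near 0 at 1 h: Col1a1 had a mean of -0.02, Tgfbi 0.01 and Timp1 0.17. Zeb1, a repressor of E-cadherin, had the highest mean of the list, 1.45, from replicate 3 at 9.53, and its median was 0.05.

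**Figure D2:**
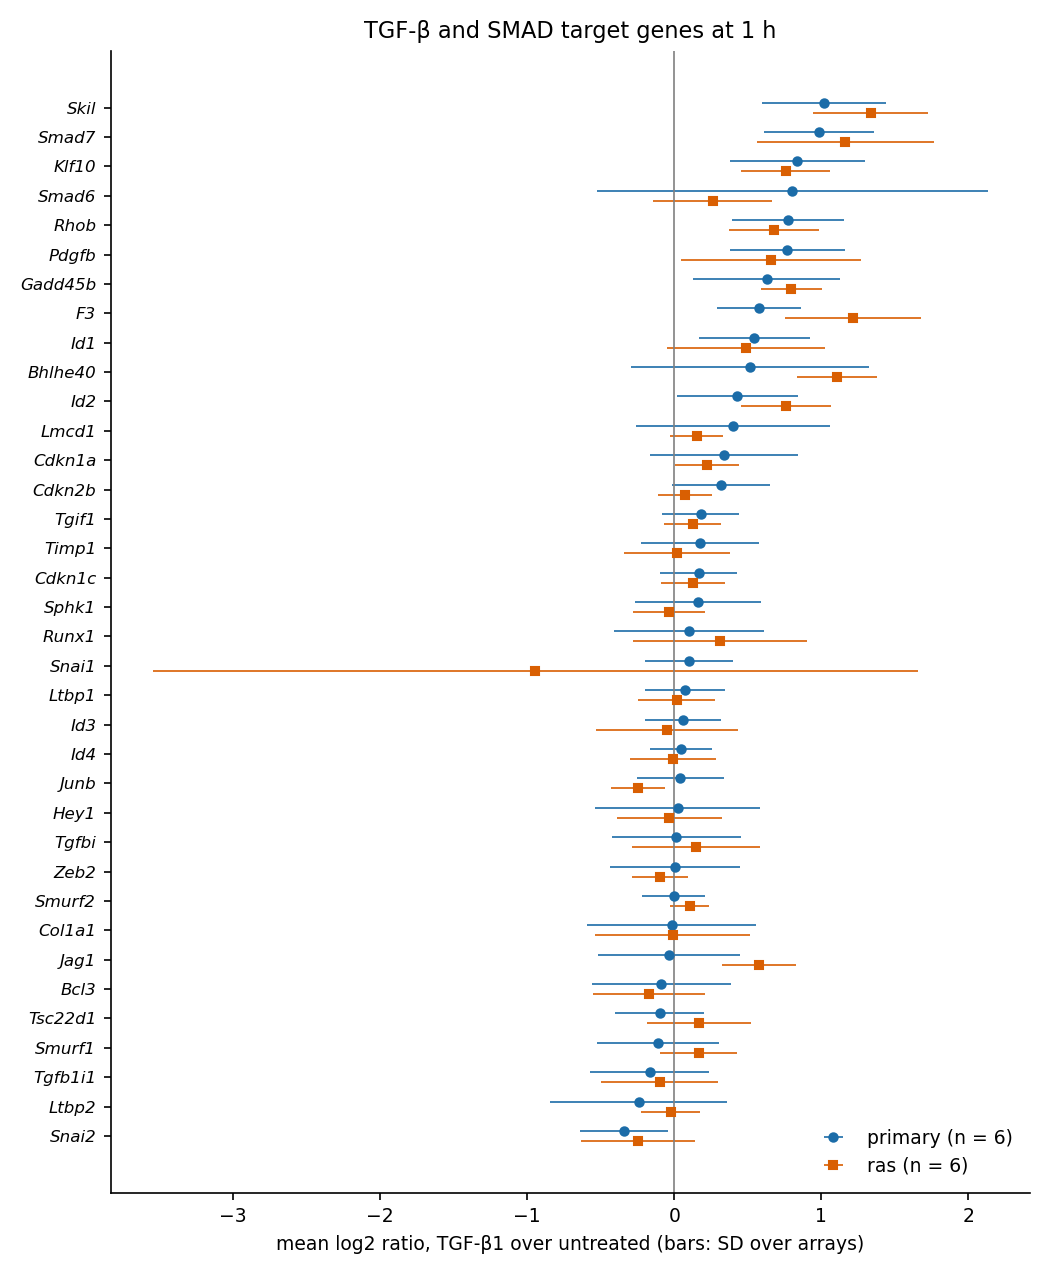
Mean log2 ratio (horizontal axis; bars, SD over 6 arrays) at 1 h of TGF-β1 for measured TGF-β and SMAD target genes, in primary keratinocytes (circles) and in ras keratinocytes (squares). Zeb1, with an SD of 3.98 over the primary arrays, is left out; Skil and Smad7 are at the top in primary cells with means of 1.02 and 0.98, and Snai2 is at the bottom with -0.34.

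In the plot of target genes, the upper genes include feedback inhibitors, transcription regulators, Rhob, Gadd45b, the growth factor gene Pdgfb, the cell-surface F3, Cdkn1a and Cdkn2b. Below Cdkn2b the means of primary cells lay close to 0 with bars that cross it, except that of Snai2.

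Ligands, receptors and SMADs, the parts that carry the signal, had no called member at 1 h. Of 53 listed genes 28 were measured, none had the same sign on all 6 arrays, and 8 means were above 0 (median -0.05). Tgfb1, the gene of the ligand that was added as protein, had a mean of -0.05 ± 0.36 (SD, n = 6). Smad3 stood at -0.72, -0.29, -2.13, 0.16, -1.31 and -0.67, mean -0.83 ± 0.80 (SD, n = 6; adjusted p = 1.0), so that 5 of 6 arrays were below 0. Tgfbr2, the receptor that binds the ligand, had a mean of 0.14 ± 0.33 (SD, n = 6). Dcn, a matrix proteoglycan that binds TGF-β, was lower at an unadjusted p of 0.00212, but its mean of -1.52 came from replicate 5 at -7.50 and its median was -0.45.

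Immediate early genes, which other growth signals switch on within minutes, had no called member either. Of 51 genes 35 were measured, 2 were above 0 on all 6 arrays (Fosl1 and Mcl1) and 1 below (Rnd3). Fosl1, an AP-1 subunit, had log2 ratios of 0.35, 0.30, 0.40, 0.46, 1.19 and 0.75, mean 0.57 ± 0.34 (SD, n = 6; adjusted p = 0.817). Fos had a mean of 0.79 with 4 of 6 arrays above 0 and a range of -0.65 to 3.93. Junb, a known SMAD target in other cells, had a mean of 0.04 ± 0.30 (SD, n = 6). In the list of MAP kinase, phosphatase and EGFR-ligand genes, 23 of 49 were measured, with 1 above 0 (Map2k6) and 1 below 0 (Braf) on all 6 arrays.

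The remaining lists had small counts of members of the same sign on all 6 arrays, as the bar chart of lists shows. In several of them the share above 0 still passed the 2.25% of all features, so the target list was not alone in this. The share of epidermal differentiation genes came close to the 21.6% of the target list. Epidermal differentiation genes had 3 of 15 above 0 on all 6 arrays: filaggrin (Flg, mean 0.38), the protease gene Klk5 (0.33) and Krt10 (0.25), a keratin of suprabasal cells. Keratin, desmosome and epithelial identity genes had 1 of 29 (Krt10 again), and the tight junction gene Cldn1 was lower at an unadjusted p under 0.05 with a mean of -0.38. Hypoxia and glycolysis genes had 2 of 12 above 0 (Ndrg1 and Vegfa) and 1 below, the glycolytic enzyme gene Pgk1, with a mean of -0.33 ± 0.23 (SD, n = 6). The interferon list had 2 of 19 above 0: Irf1, a transcription factor, with a mean of 0.43, and Usp18. Of 18 measured p53 and apoptosis genes, 2 were above 0 and 0 below 0 on all 6 arrays. Cell cycle lists showed 2 of 36 mitosis genes and 2 of 30 replication genes above 0 on all 6 arrays, with list medians of -0.06 and 0.02. Matrix genes had 1 of 43 above 0 (Col12a1, mean 0.22), and cholesterol and fatty acid synthesis genes and stress genes had 0 of 13 and 0 of 22 of the same sign on all 6. The lists hold 12 to 43 measured genes, and shares of so few genes are coarse.

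**Figure D3:**
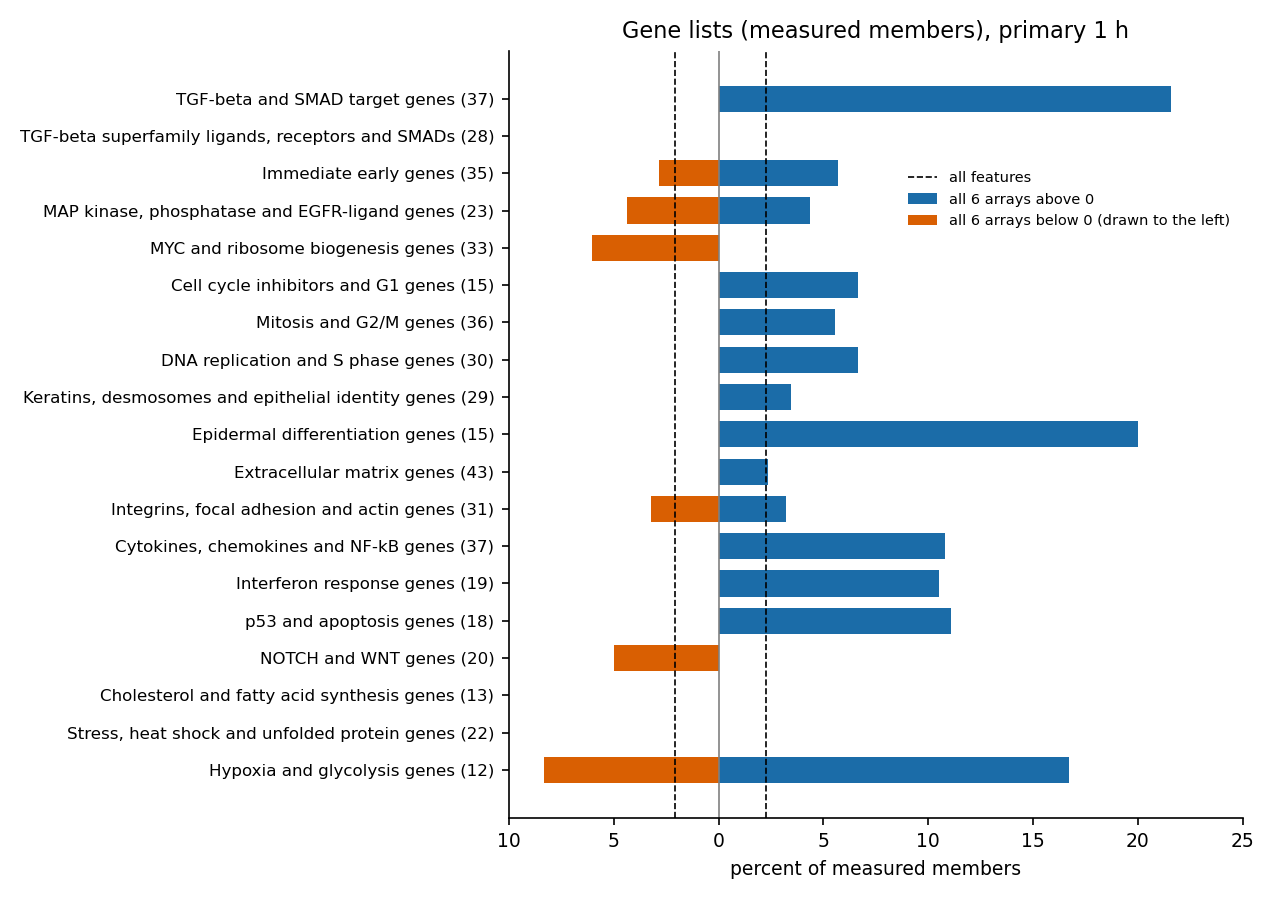
Share of each list's measured members (number in brackets) with all 6 arrays above 0 (bars to the right) or all 6 below 0 (bars to the left), in percent, for primary keratinocytes at 1 h of TGF-β1. The dashed lines mark all 8905 features, 2.25% above and 2.1% below; TGF-β and SMAD target genes reach 21.6% above and 0% below.

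Markers of other cells that a skin culture could hold had no called member. Of 11 fibroblast markers, 1 (Twist2) was below 0 on all 6 arrays and none above, with means between -1.52 (Dcn, from 1 array) and 0.13. Of 21 immune cell markers, 1 was above 0 (Ptprc) and 1 below (Itgam) on all 6 arrays. Melanocyte, muscle and adipocyte markers, 4, 11 and 5 genes, had none of the same sign on all 6, and 1 of 8 endothelial markers did (Cdh5, mean 0.17). The 5 adipocyte markers all had means above 0 (median 0.20), and their part in other ratios was not tested. By array, the median of these 5 was 1.16 on replicate 3 and 0.14, 0.12 and 0.08 on replicates 1, 2 and 4. On replicates 5 and 6 it was -0.14 and -0.11. As these are ratios, they do not say how much of each cell type was present.

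Several of the genes with the smallest p or the largest mean were not known pathway genes, and many rested on 1 array. Map3k6, a MAP kinase kinase kinase gene, had an SD of only 0.06 around a mean of 0.34 (adjusted p = 0.735), and Map3k20, a relative, had a mean of 0.41 ± 0.40 (SD, n = 6). The transcript C130094E24 (mean 0.40) and Rmc1 (0.38) completed the 10 higher genes. Lower genes of the same rule were Fbxo25, Lsm1, Slc6a2, Sst, Bex6, N4bp2l2, Sox12, Slc28a2 and Ticam1 beside Rnd3. Lsm1, a part of the complex that leads messenger RNA to decay, stood at -0.63 ± 0.41 (SD, n = 6). Several of the largest means, though not those of Skil, Smad7 and Klf10, came from single arrays: Rogdi at -2.28 had replicate 1 at -9.87, Sox12 at -1.43 had replicate 1 at -7.70, and Chgb at 1.01 had replicate 3 at 5.39. Frrs1l, Il16, Vamp1 and Mfsd4b1 were likewise set by 1 array, with medians between -0.77 and 0.38.

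**Figure D4:**
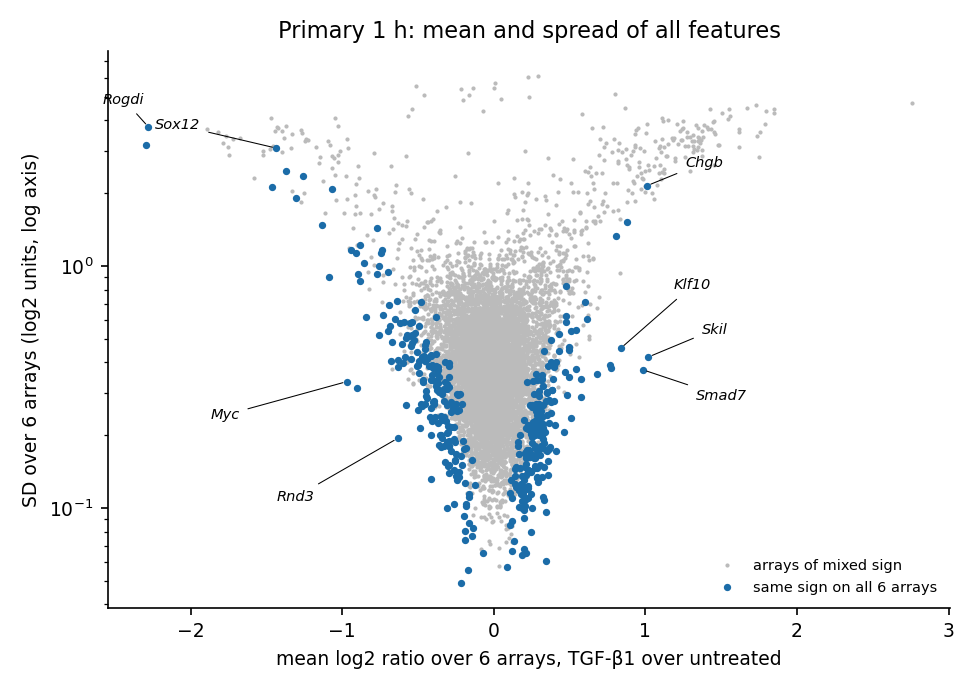
Mean log2 ratio over the 6 arrays (horizontal axis) against the SD over them (vertical, log axis) for all 8905 features of primary keratinocytes at 1 h; blue points have the same sign on all 6 arrays. Klf10, Skil, Smad7 and Myc combine means near 1 in size with SDs of 0.33 to 0.46, while Rogdi, Sox12 and Chgb have SDs of 2.15 to 3.75.

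The plot of mean against SD separates both kinds of gene. Of 156 features with a mean beyond 1 in size, 154 had an SD above 1, and the others were Skil and 1 unnamed probe.

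The promoters of Klf10, Skil and Smad7, which the rule would have shown, had no entry in the promoter set used. Upstream sequence is shown in their place for 3 genes of the target list that differ in role, to set their promoters beside the ratios above. They are the cytoskeletal Rhob, the clotting initiator F3 and the repressor Id2, matched by symbol to RefSeq (GRCm38.p6) and chosen after their values were seen. Each run is the 250 bases before the start of transcription, 5′ to 3′ on the gene's strand, and capitals mark motif matches. The Rhob promoter, chr12:8500010-8500259 (minus strand), holds 1 match to the SMAD core CAGAC at 204 to 200 bases upstream.
Rhob: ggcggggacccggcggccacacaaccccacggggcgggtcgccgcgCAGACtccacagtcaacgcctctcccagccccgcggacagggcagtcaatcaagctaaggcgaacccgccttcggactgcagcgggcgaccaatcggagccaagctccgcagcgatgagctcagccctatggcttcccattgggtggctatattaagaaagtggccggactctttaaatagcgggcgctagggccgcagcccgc
The F3 promoter, chr3:121723287-121723536 (plus strand), holds 1 match to the AP-1 motif TGACTCA, read there on the other strand as TGAGTCA, at 135 to 129 bases upstream.
F3: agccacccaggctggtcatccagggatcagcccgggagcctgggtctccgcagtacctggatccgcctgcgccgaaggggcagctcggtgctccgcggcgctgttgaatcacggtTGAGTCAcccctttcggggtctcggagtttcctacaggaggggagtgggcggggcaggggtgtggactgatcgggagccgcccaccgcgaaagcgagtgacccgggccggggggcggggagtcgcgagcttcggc
The Id2 promoter, chr12:25096093-25096342 (minus strand), holds 1 match to the GC-rich SMAD element GGCGCC at 231 to 226 bases upstream.
Id2: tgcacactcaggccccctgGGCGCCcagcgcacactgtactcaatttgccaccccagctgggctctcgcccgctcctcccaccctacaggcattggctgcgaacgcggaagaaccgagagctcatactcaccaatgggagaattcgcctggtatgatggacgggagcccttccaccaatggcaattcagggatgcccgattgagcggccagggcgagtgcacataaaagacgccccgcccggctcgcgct
Among 32851 promoter windows of the same length, searched on both strands, CAGAC occurred in 42.2%, GGCGCC in 9.59% and TGACTCA in 4.46%. The palindromic SMAD element GTCTAGAC (0.167% of windows), the CRE TGACGTCA (1.55%) and the E-box CACGTG (6.02%), had no match in these 3 windows. A match is a description of the letters, not a site.

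The comparison with ras keratinocytes asks whether the 1 h response differs once cells carry Ha-ras. No feature differed after adjustment: limma called 0 of 8905 (0%) for the difference of primary minus ras, with 371 (4.17%) at an unadjusted p under 0.05. Arrays did not overlap for 14 features higher (0.157%) and 21 lower (0.236%) in primary cells. The feedback genes had like ratios in both. Klf10 averaged 0.84 ± 0.46 in primary and 0.76 ± 0.30 in ras cells (SD, n = 6 each), a difference of 0.08 with a 95% interval of -0.36 to 0.52. Skil averaged 1.02 in primary and 1.34 in ras cells (difference -0.32, 95% interval -0.93 to 0.30), and Smad7 0.98 in primary and 1.16 in ras cells (difference -0.18, -0.84 to 0.48). These intervals still allow differences of a size like the responses themselves. Skil and Smad7 were among 7 features called in ras cells (0.0786%) and were not called in primary cells, which by itself shows no difference between the cell types.

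For F3, Bhlhe40, Myc and Ier3 the mean was nearer to 0 in primary cells than in ras cells, without the difference passing the test. F3 averaged 0.58 ± 0.29 in primary and 1.22 ± 0.46 in ras cells (SD, n = 6 each; difference -0.64, SE 0.34, adjusted p = 1.0). The sign of the difference was the same in 4 of 4 number blocks. Its size there ran from -1.07 to -0.05, each from 1 or 2 arrays of a cell type. Bhlhe40 averaged 0.52 in primary and 1.11 in ras cells (difference -0.59, SE 0.32), with that sign in 3 of 4 blocks. Myc stood at -0.97 in primary and -1.54 in ras cells (difference 0.57, SE 0.49). Ier3, an early gene of cell survival, stood at -0.27 in primary and -0.95 in ras cells (difference 0.67, SE 0.25, unadjusted p = 0.0101).

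Among the genes whose arrays did not overlap, Cxcl5, a chemokine that attracts neutrophils, had the largest difference on the higher side. Cxcl5 had log2 ratios of 0.38, 0.72, 0.53, 0.29, 0.18 and -0.03 in primary cells, against -1.12, -1.94, -0.29, -0.85, -0.21 and -1.29 in ras cells (difference 1.30, SE 0.48, adjusted p = 1.0). Dusp6, a phosphatase that turns off ERK and a feedback gene of ras signalling, averaged 0.11 ± 0.17 in primary and -0.53 ± 0.28 in ras cells (SD, n = 6 each; difference 0.64, SE 0.28, adjusted p = 1.0). Sfxn2, Klk8 and Prmt5 were the other genes named on this side, with differences of 0.58, 0.49 and 0.35. On the lower side stood Bex6 (-0.86), Siae (-0.61), Ruvbl2 (-0.95), Sirpb1a (-0.75) and Kpna4 (-0.54).

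Taking both cell types together, 16 features (0.18%) were above 0 and 11 (0.124%) below 0 on all 12 arrays at 1 h. The 16 hold 5 genes of the target list, Klf10, Skil, Smad7, Rhob and F3, and further Arntl, Eps15, Haus3, Hrh1, Inava, Irf1, Itm2a, Krt77, Ntm, Tnf and Zfp655. Irf1 averaged 0.43 in primary and 0.41 in ras cells, and Inava 0.54 in primary and 0.79 in ras cells. The 11 hold Myc, the secreted protease gene Adamts1 (-0.59 in primary and -0.54 in ras cells), Dcaf6, Ercc6, Itgam, Pfkfb4, Pgk1, Prr30, Rarb, Trim27 and 1 unnamed probe. All 12 arrays carried treated RNA in Cy5, so at 1 h a constant dye bias of a gene and its response cannot be told apart.

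The comparison with 6 h asks which genes of the 1 h response had passed by then in the same cells. No feature differed after adjustment: limma called 0 of 8905 (0%) for 1 h minus 6 h, with 187 (2.1%) at an unadjusted p under 0.05. Klf10 came nearest. It averaged 0.84 ± 0.46 at 1 h (SD, n = 6) and -0.22 ± 0.34 at 6 h (SD, n = 7), a difference of 1.06 (SE 0.21, adjusted p = 0.0797), and the arrays at 1 h and 6 h did not overlap. With the number blocks as a random term its adjusted p was 0.0396, and with them as a fixed term, added after seeing the data, 0.106. Arrays did not overlap for 2 features higher (0.0225%) and 2 lower (0.0225%) at 1 h, the lower ones being Fibin and the collagen gene Col9a2.

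Of the Id genes, none passed the test for this difference, and Id2 stood at rank 2, Id1 at rank 4 and Id3 at rank 20 of 8905 by p. Id4 had a difference of 0.06 (SE 0.19). Id1 averaged 0.54 at 1 h and -0.80 at 6 h (difference 1.34, SE 0.44, adjusted p = 1.0). Id2 averaged 0.43 at 1 h and -0.50 at 6 h (difference 0.93, SE 0.28), and Id3 0.06 at 1 h and -0.65 at 6 h (difference 0.71, SE 0.27). Replicate 4 at 6 h stood apart, with ratios of 1.16 for Id1, 0.51 for Id2 and 0.59 for Id3, while the other 6 arrays were below 0 for each. Without it the differences were 1.67, 1.10 and 0.92, and none was called. On the single arrays, Id1 was above 0 on 6 of 6 at 1 h, 1 of 7 at 6 h, 0 of 6 at 24 h and 0 of 3 at 48 h. Smad7 had a difference of 0.79 (SE 0.31), Rnd3 of -0.63 (SE 0.22) and Fosl1 of 0.87 (SE 0.31), and none was called. Untreated RNA may be shared between times, so the times are set side by side.

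Over the 4 times, the genes that lead at 1 h took different courses. Klf10 had means of 0.84, -0.22, -0.44 and -0.01 at 1, 6, 24 and 48 h, and Id1 of 0.54, -0.80, -0.72 and -1.99. The first time is thus the one at which either gene was above 0 on all arrays. Rhob had means of 0.77, 0.50, 0.55 and 0.77, with 1 array below 0, replicate 4 at 6 h (-0.92). Skil had means of 1.02, 0.52, 0.36 and 0.96. Without replicate 4 at 6 h, the means at that time were 0.75 for Skil, 0.74 for Rhob and -0.99 for Myc. At 24 h Skil was above 0 on 3 of 6 arrays with a median of 0.16, and its mean there was 0.14 without replicate 6. Smad7 had means of 0.98, 0.19, 0.55 and 0.74, of which those at 6 and 24 h were -0.01 and 0.24 without replicate 6 of each time. Myc had -0.97, -0.73, 0.15 and 0.07, with a range at 24 h of -1.33 to 2.36 and a mean there of -0.30 without replicate 6. Single arrays thus moved several means of the later times. Cdkn2b had 0.32, 0.47, 0.88 and 0.86 and was called at 24 h (limma adjusted p = 0.0178). Its median at 24 h was 0.46, with replicates 5 and 6 at 1.51 and 2.28. Without replicate 6 its mean there was 0.60. The number of called features was 1, 1, 121 and 766 at 1, 6, 24 and 48 h, or 0.0112%, 0.0112%, 1.36% and 8.6% of 8905, in groups of unequal size.

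**Figure D5:**
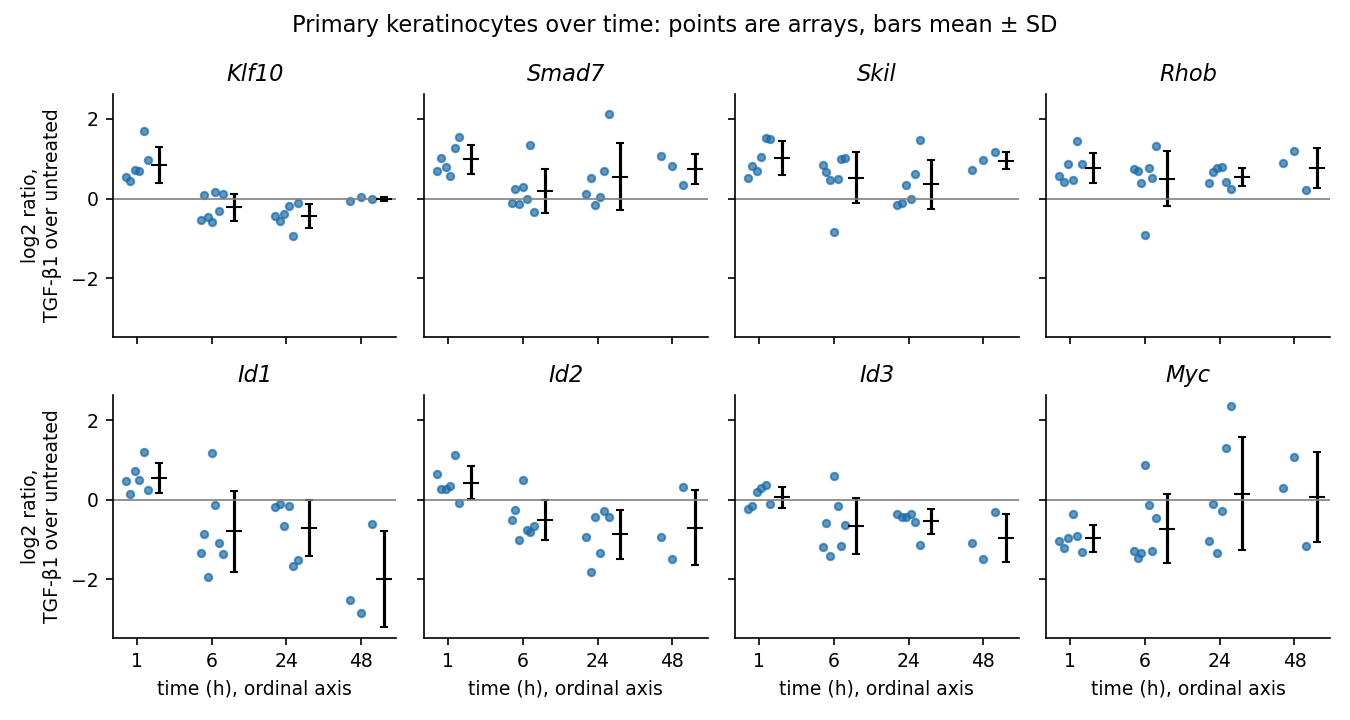
Log2 ratio of TGF-β1 over untreated (vertical axis) in primary keratinocytes at 1, 6, 24 and 48 h (n = 6, 7, 6 and 3 arrays; times evenly spaced), with a point per array and bars of mean ± SD. Klf10 and Id1 lie above 0 on every array at 1 h. Id1 has means below 0 at each later time, and Klf10 at 6 and 24 h, with -0.01 at 48 h. Skil and Rhob keep means above 0 throughout, though Skil lies above 0 on 3 of 6 arrays at 24 h.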

How the data were processed

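The deposited table holds log2 ratios for 9596 probes on each of 56 arrays, with 0 values missing. How the authors scanned, background-corrected and normalized them, and the base of the logarithm, is not stated in the labels or headers, and sizes beyond 10 leave base 10 aside. Treated RNA carried Cy5 on 49 arrays per the labels, and the 7 arrays named as reversed, none of them at 1 h, were left out because the sign they were deposited with is not stated. The median of each array was subtracted, and probes of 1 gene symbol in the platform annotation were averaged, which gave 8905 features, 6795 of them named genes. limma 3.58.1 in R 4.3.3 (lmFit, eBayes) was fitted with 1 coefficient per group over the 49 arrays, and the group mean, primary minus ras at 1 h and 1 h minus 6 h were tested (two-sided, Benjamini-Hochberg, adjusted p under 0.05). The code was tested on simulated data. Single genes also had an exact sign-flip permutation test over the 6 arrays. Named are called genes, the 10 each way with the smallest p and the 5 each way with the largest mean among genes of 1 sign on all 6 arrays, the 5 each way of each difference whose arrays do not overlap, Tgfb1, Smad3 and members of lists. The arrays, lists and rules were chosen with earlier results of these data known, and which list members are shown was decided with their values in view. Replicate numbers were not taken as a pairing, though a partial one is possible. Same-numbered primary and ras arrays at 1 h correlated at 0.001 to 0.182 in their deviations from the group mean. Of 6 primary arrays, 3 correlated best with the ras array of their own number. The number of arrays limits the precision.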

Additional observations from a re-analysis of the deposited data

Results flagged for a closer look

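Of 72 genes tested for a lone array among the 6 primary arrays at 1 h, 23 had 1 array far from the other 5, with a gap, as a share of the group's range, above the 95% critical value of Dixon's test. Chance gives this in about 1 group in 20, and 15.9% of all 8905 features had such an array. Some of the 72 genes were chosen for a large mean, which 1 extreme array can produce. On replicate 1 these were Rogdi (-9.87), Sox12 (-7.70) and Tnni2 (-8.80). On replicate 2 they were Dusp2 (8.91), Laptm5 (6.58), Il1b (6.36), Mfsd4b1 (3.98) and Espl1 (1.01). On replicate 3 they were Zeb1 (9.53), Chgb (5.39), Smad6 (3.48), Itm2a (1.46), Vamp1 (-4.13) and Ticam1 (-1.61), and on replicate 4 Braf (-3.05). Replicate 5 held Dcn (-7.50), Frrs1l (-5.72), Il16 (-5.16), Fbxo25 (-3.04), Slc28a2 (-1.76), Bex6 (-1.59), Id4 (0.45) and Apc (0.088), and replicate 6 held 0. Neither Klf10, Skil, Smad7, Rhob nor Rnd3 had a lone array.

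Ruvbl2, which encodes a helicase of chromatin complexes, differed in sign between the cell types at 1 h: all 6 primary arrays were below 0 and all 6 ras arrays above it, a difference of -0.95 (SE 0.33). Primary replicates 5 and 6 were close to 0, at -0.04 and -0.01, and over the 4 number blocks the difference ran from -1.075 to -0.18. The difference was tested in the fit and was not called.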

How the results depend on the processing

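The response at 1 h had 1 called feature, Klf10, and its direction was the same in each alternative run. The count was 0 in a fit of the group's own arrays (447 features at an unadjusted p under 0.05), of the 12 arrays at 1 h alone (491), with the reversed arrays as deposited (477) or turned with a dye term (1168), and without replicates 3 and 5 (405; chosen after seeing the data). It was 2 with arrays scaled to a common spread and with number blocks as a random block (Klf10 and Skil in each), and 4 with array weights (Klf10, Skil, Rnd3 and Tmem35a, the last outside the naming rule). Leaving out 1 replicate in turn gave 0 to 1, with 1 without replicate 1 or 2. For 1 h minus 6 h the count was 0, 1 (Klf10) with number blocks as a random block and 0 with them as a fixed term (chosen after seeing the data). For primary minus ras it was 0 in each alternative. The target list had 10 members higher at an unadjusted p under 0.05, 6 without replicates 3 and 5, and 8 to 11 with 1 replicate left out.

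Of 1845 values recomputed for single genes and differences, 15 reversed, for 7 genes, all near 0 or set by 1 array. With the dye term Id3 was at -0.0813, Junb at -0.106 and Tgfb1 at 0.0755, and with array weights Id4 at -0.0027. Without replicates 3 and 5, Id3 was at -0.0538, Id4 at -0.0527 and Zeb1 at -0.144. With 1 replicate left out, Dusp2 ranged between -0.10 and 1.98, Id3 between -0.0018 and 0.12, Id4 between -0.036 and 0.0894, Junb between -0.0138 and 0.137, Tgfb1 between -0.169 and 0.0534, Tnni2 between -2.06 and 0.0524, and Zeb1 between -0.17 and 1.94. The cause was not tested, apart from those lone arrays.

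With the replicate number as a block, the counts were 1, 0 and 0. These numbers were not taken as a pairing, since same-numbered primary and ras arrays correlated at as little as 0.001 in their deviations, although 3 of 6 primary arrays correlated best with the ras array of their own number. A filter on low values could not be run, as no value is missing and brightness is unknown. No array at 1 h had reversed dyes, and the log base and the sign of the ratios rest on the values and the channel order.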
